A study of Mus musculus with 11 samples.

Results

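The insulin-like growth factor (IGF) system of the retina was examined through 10 of the 25311 genes in the count matrix. They were the ligands Igf1 and Igf2, the receptors Igf1r and Igf2r, and the binding protein genes Igfbp2, Igfbp3, Igfbp4, Igfbp5, Igfbp7 and Igfbpl1. The members were chosen by name, and each was followed across the retinal cell classes and the 4 conditions of the study. Single-cell suspensions of retinas from 11 C57BL/6J mice at postnatal day 10 had been sequenced with inDrop, a droplet method that counts transcripts by unique molecular identifiers (UMIs). The 3 control mice received vehicle (PBS). The 3 Phase I ROP mice, a neonatal model of hyperglycemia-associated retinopathy of prematurity, received streptozotocin (STZ) by daily intraperitoneal injection, and were littermates of the controls. The 2 ω-3 and 3 ω-6 mice all received STZ and came from another litter, split into cages whose nursing dams were fed a diet enriched in ω-3 or ω-6 long-chain polyunsaturated fatty acids. The model shares its limits with any STZ model, as the drug acts on the insulin-producing cells of the pancreas and the retina is reached through the whole animal.

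IGF1 and IGF2 are small growth factors related to insulin. Both signal through the tyrosine kinase IGF1R and the insulin receptor substrates to PI3 kinase and MAP kinase, and IGF2R removes IGF2 by carrying it to lysosomes. The binding proteins hold the ligands in serum and matrix, where they can shield, store or present them. In the developing retina IGF1 is known as a factor that vessel growth needs, and low serum IGF1 is a known feature of preterm infants who later develop retinopathy.

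Each mouse gave 787 to 2618 cells with more than 300 genes, 20033 in all, and 2565568 to 6517776 UMIs over all deposited cells. The cells were clustered without the IGF genes, and the 24 clusters were joined into classes by marker genes, so that rod, cone, bipolar, amacrine and Müller stand for cells like those types. The numbers of cells were 9843 rods, 1131 cones, 3457 bipolar cells, 3539 amacrine cells and 1443 Müller glia. Small classes held 112 endothelial-like, 96 ganglion-like, 74 RPE-like, 59 microglia-like, 47 astrocyte-like and 31 horizontal-like cells, and 201 cells stayed unnamed. Rod markers were absent from the 10 leading genes of 4 rod clusters. Of 18872 distinct barcodes, 1157 occurred in more than 1 library, and no cell was removed as a doublet because the caller marked only 0.359% of cells. Levels are given as CPM, UMIs of the gene per 1000000 UMIs of the same class and mouse, intervals are exact Poisson or binomial intervals at 95% that cover counting error only, and each GEO sample was taken as a separate mouse.

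Libraries of the control mice differed from the other 8 in genes outside the IGF system. The nuclear RNA Rn7sk lay between 193 and 290 CPM in controls and between 1.1 and 16.2 CPM in the rest, and the immediate early gene Fosb between 0.39 and 0.89 CPM against 116 to 231 CPM. A list of 20 dissociation-response genes summed to 309 to 561 CPM in controls and 2657 to 3607 CPM in Phase I ROP. Rods made up 27.3% of control cells and 50.7% of Phase I ROP cells, and bipolar cells 30.8% and 16.2%. Between control and Phase I ROP, treatment and library preparation therefore cannot be told apart, and in whole-retina sums fewer cells of a type and less RNA per cell cannot be told apart either.

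**Figure D1:**
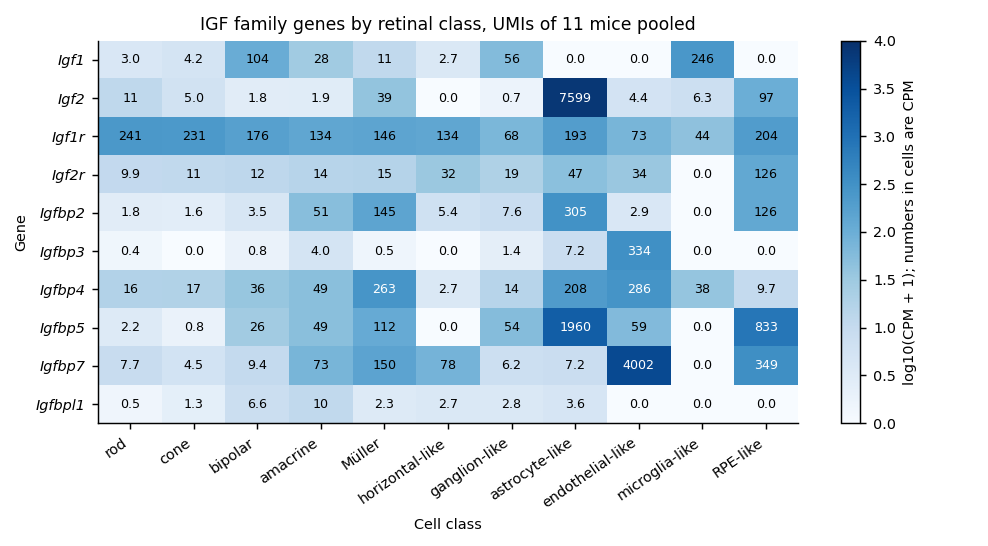
Pooled level of each IGF gene (rows) in each retinal class (columns) over 11 mice, printed as CPM and shaded by log10(CPM + 1). Igf2 stood at 7599 CPM in astrocyte-like cells and Igfbp7 at 4002 CPM in endothelial-like cells, while Igf1r was found in every class.

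Igf1, a secreted ligand, lies at chr10:87858265-87937042 on the plus strand (GRCm38, as all positions here). Among the 5 large classes, bipolar cells had the highest Igf1 level in 11 of 11 mice. They held 60.7% of the gene's UMIs with 19.3% of all UMIs. The pooled level was 104.1 CPM (interval 97.5 to 111.1) in bipolar cells, 28.1 CPM in amacrine cells, 10.5 CPM in Müller glia, 4.2 CPM in cones and 3.0 CPM in rods. Per mouse, bipolar cells ranged from 72.3 to 165.0 CPM and did not overlap amacrine cells, which ranged from 10.2 to 51.0 CPM. The range of Müller glia, 0 to 39.2 CPM, overlapped that of amacrine cells over mice, but within each mouse amacrine cells were the higher class in 11 of 11. An Igf1 UMI was seen in 15.3% of bipolar cells at a median of 2319 UMIs per cell and in 0.305% of rods at a median of 1055 UMIs.

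Within the bipolar class both clusters carried Igf1. The cluster led by Grik1, Scgn and Vsx1, genes of cone bipolar cells, stood at 124.7 CPM with a UMI in 15.7% of cells. The ON-type cluster led by Pcp2, Trpm1 and Grm6 stood at 97.5 CPM with a UMI in 15.2% of cells, and the ranges of the 2 clusters over mice overlapped. In amacrine cells Igf1 was concentrated in the cluster led by Prdm13, Ebf3 and Nhlh2, at 80.1 CPM against 9.9 CPM in the cluster led by C1ql1, C1ql2 and Gad1. The 59 microglia-like cells gave the highest pooled level of any class, 245.6 CPM (interval 174.7 to 335.8), but from 39 UMIs in 16 cells. Per mouse these microglia-like levels ran from 0 to 631 CPM, and 3 of 11 mice had no Igf1 UMI there, so the class was not separated from bipolar cells. Ganglion-like cells carried an Igf1 UMI in 15 of 96 cells, or 15.6%, at a median of 13618.5 UMIs per cell. Of their 81 Igf1 UMIs, 34 came from 1 cell. No Igf1 UMI was found in astrocyte-like, endothelial-like or RPE-like cells.

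Igf2, the second ligand, lies at chr7:142650766-142666816 on the minus strand and is an imprinted gene that neighbours H19. It was concentrated in the 47 astrocyte-like cells, which held 85.0% of its UMIs with 0.61% of all UMIs. The pooled level there was 7599 CPM (interval 7279 to 7930), and 46 of 47 cells, or 97.9% (interval 88.7 to 99.9), carried an Igf2 UMI. Müller glia had one in 6.86% of cells, cones in 1.68%, rods in 1.16%, amacrine cells in 0.509% and bipolar cells in 0.463%. The median depth was 5234 UMIs per astrocyte-like cell, against 1055 in rods to 2975 in cones over the large classes. The same cluster was led by H19, Pdgfra, S100b and Gfap besides Igf2, the latter 3 being genes of the astrocyte lineage. No single cell decided the level, as the highest held 157 of the 2121 UMIs.

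Astrocyte-like cells were few in every mouse and absent from 1 control. Their Igf2 level was 7774 and 7092 CPM in controls 1 and 3, 8104, 9802 and 8036 CPM in Phase I ROP, 11666 and 1761 CPM in ω-3 mice, and 8724, 5729 and 7409 CPM in ω-6 mice. The low ω-3 value came from 1 cell, and with so few cells control and Phase I ROP were not tested. Outside this class Müller glia came highest among the large classes in 10 of 11 mice, with a pooled 38.9 CPM and a per-mouse range of 16.3 to 92.9 CPM, far below the astrocyte-like range.

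Igf1r, the receptor tyrosine kinase for both ligands, lies at chr7:67952827-68233668 on the plus strand and was found in all classes. Averaged over mice, its level was 202.7 CPM in rods, 196.0 CPM in cones, 177.1 CPM in bipolar cells, 140.2 CPM in Müller glia and 130.9 CPM in amacrine cells. Pooled over mice, which gives more weight to the groups with many cells of a class, the levels were 241.0 CPM in rods, 230.7 CPM in cones, 176.2 CPM in bipolar cells, 145.8 CPM in Müller glia and 134.3 CPM in amacrine cells. In the small classes the mean per mouse was 248.1 CPM in RPE-like cells, from 21 UMIs, and 222.5 CPM in astrocyte-like cells, both above rods, while the pooled levels of 203.5 and 193.5 CPM were below them. Pooled over mice, endothelial-like cells at 73.3 CPM, ganglion-like cells at 68.0 CPM and microglia-like cells at 44.1 CPM, the last from 7 UMIs. The ranges of neighbouring large classes overlapped over mice. Within mice, rods were above amacrine cells in 11 of 11 and above bipolar cells in 10 of 11, but above cones in only 5 of 11.

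Igf2r, which clears IGF2, lies at chr17:12682406-12769664 on the minus strand, overlapped on the other strand by Airn, a noncoding RNA with 185 UMIs in the files. Its pooled level lay between 9.9 CPM in rods and 15.1 CPM in Müller glia over the large classes, all neighbouring ranges over mice overlapped, and Müller glia were above rods in 8 of 11 mice. RPE-like cells gave 126 CPM and astrocyte-like cells 46.6 CPM, each from 13 UMIs. Of the astrocyte-like UMIs 7 came from 1 cell, and the RPE-like UMIs from 4 cells. Without ω-3 mouse 2 the RPE-like level was 75.9 CPM, and without Phase I ROP 3 the astrocyte-like level was 11.6 CPM. Endothelial-like cells had 23 Igf2r UMIs in 13 of 112 cells and were above each large class in 7 of 11 mice. Ganglion-like cells had 27 UMIs in 15 of 96 cells.

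The binding protein genes were found mainly in glia, vessels, amacrine cells and RPE-like cells. Igfbp2, whose product binds IGF2 and IGF1 in the fluid around cells, lies at chr1:72824503-72852474 on the plus strand. Its pooled level was 304.5 CPM in astrocyte-like cells, 145.3 CPM in Müller glia and 51.0 CPM in amacrine cells, while rods had 1.8 CPM and bipolar cells 3.5 CPM. RPE-like cells had 13 UMIs in 8 of 74 cells and were above amacrine cells in 6 of 11 mice. The astrocyte-like range over mice, 133 to 415 CPM, overlapped that of Müller glia, 41.0 to 683 CPM, and astrocyte-like cells were the higher in 9 of the 10 mice with both. The Müller range included 28 cells rich in Optc, without which it was 33.9 to 88.5 CPM and did not reach the astrocyte-like range. Of 666 amacrine UMIs, 599 came from the cluster led by C1ql1, C1ql2 and Gad1, in which 14.8% of cells carried one, and 47 from the cluster led by Prdm13 that held most amacrine Igf1.

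Igfbp4, a soluble binding protein that is cut by the protease pappalysin, lies at chr11:99041244-99054392 on the plus strand. Endothelial-like cells had 285.8 CPM (interval 247.1 to 328.8) and Müller glia 263.2 CPM (interval 247.5 to 279.6), and astrocyte-like cells 207.8 CPM, all pooled over mice. The mean per mouse put them in another order, with 255.4 CPM in Müller glia, 240.0 CPM in endothelial-like cells and 222.5 CPM in astrocyte-like cells, so these 3 classes were not separated. Müller glia held 40.8% of the gene's UMIs and were the highest large class in 11 of 11 mice, with a range of 189 to 336 CPM that did not overlap the amacrine range of 22.8 to 67.4 CPM. A UMI was seen in 34.3% of Müller glia and in 1.88% of rods.

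Igfbp5, a matrix-bound binding protein, lies at chr1:72857932-72874884 on the minus strand, next to Igfbp2. It stood at 1960 CPM (interval 1799 to 2131) in astrocyte-like cells, where 93.6% of cells carried a UMI, and at 833 CPM in RPE-like cells, where 40.5% did. The per-mouse ranges of these classes, 871 to 4140 CPM and 0 to 2317 CPM, overlapped, and astrocyte-like cells were the higher in 8 of the 10 mice with both. Müller glia followed at 112 CPM, amacrine cells at 48.6 CPM, bipolar cells at 26.4 CPM and rods at 2.2 CPM, and Müller glia were the highest large class in 11 of 11 mice.

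Igfbp3, the main carrier of IGF1 in serum, lies at chr11:7206086-7213923 on the minus strand and was found mainly in the vascular cluster. Endothelial-like cells held 76.5% of its UMIs at 334 CPM (interval 292 to 381), and amacrine cells 17.4% at 4.0 CPM. No UMI was counted in 1131 cones. The level varied widely between mice, from 24.3 to 989 CPM, and 36.6% of the endothelial-like cells carried a UMI, the highest with 48. The ω-6 mouse 2 alone gave 132 of the 228 endothelial-like UMIs, and without it the pooled level was 197.8 CPM (interval 160.2 to 241.5). Split by their vascular markers, the 84 cells with more endothelial marker UMIs had 380.8 CPM (interval 332.5 to 434.0), and the 27 cells with more pericyte marker UMIs had 43.6 CPM (interval 11.9 to 111.5). Of the 224 UMIs behind the first of these levels, 130 came from ω-6 mouse 2. That split was made after the values had been seen and is given as a description.

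Igfbp7, a vessel-matrix protein with low affinity for IGFs, lies at chr5:77349240-77408041 on the minus strand and overlaps Polr2b on the other strand. It had 4002 CPM (interval 3854 to 4155) in endothelial-like cells, which held 59.9% of its UMIs, and 111 of those 112 cells carried one. Cells on both sides of the vascular split were rich in it, with 3872 CPM in those with more endothelial marker UMIs and 4932 CPM in those with more pericyte marker UMIs. The level per mouse lay between 2917 and 5625 CPM. RPE-like cells carried an Igfbp7 UMI in 18 of 74 cells, or 24.3%, with 36 UMIs in all. Within mice they were below endothelial-like cells in 11 of 11, above amacrine cells in 10 of 11 and above Müller glia in 9 of 11.

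Within the amacrine class Igfbp7 was concentrated in the small cluster that expressed Slc5a7, Slc18a3 and Chat, the cholinergic genes of starburst amacrine cells. Its 127 cells held 15.2% of all Igfbp7 UMIs at 666.5 CPM, and 113 of them, or 89.0%, carried a UMI. The cluster was deep, at a median of 8111 UMIs per cell, but the larger amacrine cluster led by C1ql1 had only 7.25% of cells with a UMI. Per mouse the level ran from 553 to 792 CPM in controls, 310 to 1185 CPM in Phase I ROP, 515 to 672 CPM in ω-3 mice and 606 to 751 CPM in ω-6 mice, so that all 4 groups overlapped.

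Igfbpl1, which encodes a binding-protein-like factor of young neurons, lies at chr4:45809468-45826923 on the minus strand. Amacrine cells held 59.6% of its 228 UMIs at 10.4 CPM and bipolar cells had 6.6 CPM, with ranges over mice that overlapped and amacrine cells the higher in 6 of 11 mice. The amacrine cluster led by Prdm13 accounted for 54.8% of the UMIs at 33.9 CPM. A UMI was seen in 4.98% of its cells and in 0.374% of the cluster led by C1ql1. The ON-type bipolar cluster held a further 24.1%.

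The patterns across 22 clusters of at least 50 cells were compared with those of all other genes by Pearson's r on log2(CPM + 10), as a description only, since the clusters share libraries and differ in depth. The astrocyte-like and horizontal-like clusters were smaller and not included, so the likeness of Igf2 leaves out the class that held it. Igfbp3 was most like Adgrl4 (r = 0.983) and Cdh5 (r = 0.979), both endothelial genes. Igf2 was most like the unnamed transcript AC013548.1 (r = 0.995) and Myof (r = 0.934). Igf1r was most like Stx3 (r = 0.913), Igfbp2 like Efemp1 (r = 0.909), Igfbp5 like Ctdspl (r = 0.902), Igf2r like Ctdspl (r = 0.891) and Igfbp4 like S100a16 (r = 0.883). The likeness was lowest for Igf1, with Gm12792 (r = 0.786), and for Igfbpl1, with Prdm13 (r = 0.755), a gene that also led its amacrine cluster.

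The Müller class was not uniform for the binding proteins. A split chosen after the values had been seen separated 28 of 1443 Müller glia, from 7 mice, with at least 3 UMIs of Optc, the gene of the secreted protein opticin. These 28 cells held 7.06% of the UMIs of the class but 60.8% of its Igfbp2, at 1250 CPM against 61.3 CPM in the other Müller glia. They also held 48.2% of its Igfbp7, at 1023 against 83.4 CPM, and 66.7% of its Igf1, at 99.4 against 3.78 CPM. Igfbp4 was 568 against 240 CPM, and Igfbp5, at 178 against 107 CPM, differed less.

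The Optc cells were low in the Müller genes Rlbp1, at 227 against 3133 CPM, and Slc1a3, at 298 against 3492 CPM. They were deep, with a median of 8340 UMIs per cell against 2049, and 21.4% of them fell in the top 5% of doublet scores, against 12.9% of the other Müller glia. Whether they are Müller glia, another cell type or doublets was not tested.

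**Figure D2:**
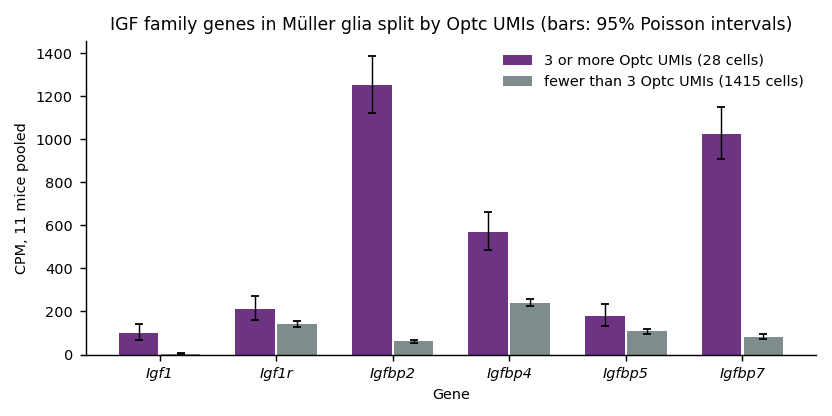
CPM of 6 IGF genes in Müller glia with 3 or more Optc UMIs (28 cells) and in the other Müller glia, with the UMIs of 11 mice pooled and bars showing 95% Poisson intervals. Igfbp2 stood at 1250 against 61.3 CPM and Igfbp7 at 1023 against 83.4 CPM.

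The first comparison asked how the IGF genes differed between Phase I ROP and control littermates. UMIs were summed per mouse and class and tested with edgeR's quasi-likelihood test, with p-values adjusted over all genes tested and called under 0.05. Igf1r was higher in Phase I ROP in rods, bipolar cells, amacrine cells, Müller glia and the whole retina. Igfbp4 was lower in rods, bipolar cells and the whole retina. No other member was called, and only the whole retina had UMIs enough to test all 10.

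The calls have to be read against the background of the same comparison. In rods 2 of 2 tested members were called against 37.9% of all genes tested, and bipolar cells had 2 of 4 against 45.2%. Amacrine cells had 1 of 7 against 38.9% and Müller glia 1 of 6 against 11.2%. In cones 0 of 1 was called against 18.9%, and in the whole retina 2 of 10 against 48.1%. With so few members tested, none of these shares is read as apart from its background, and 8 of 10 members in rods had too few UMIs to be tested. The median log2 fold change of the 10 members in the whole retina was -0.097, beside 0.0010 over all genes. Scaling mattered for these counts. With library totals in place of TMM factors the median over all genes moved to between 0.16 and 0.45, and the share of called genes that were higher rose from 51.4% to 70.6% in the whole retina, from 47.7% to 67.7% in rods and from 48.1% to 74.7% in bipolar cells. It rose from 46.9% to 74.6% in amacrine cells, from 53.0% to 72.7% in Müller glia and from 58.2% to 82.8% in cones.

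Igf1r in rods was 89.2, 68.6 and 74.0 CPM in controls and 218, 229 and 288 CPM in Phase I ROP. Every Phase I ROP mouse lay above every control, with a log2 fold change of 1.32 ± 0.24 (SE, n = 3 and 3 mice, edgeR adjusted p = 0.000513). The ratio of mean CPM was 3.17, and the fitted fold, which takes the TMM factors into account, was 2.49. In bipolar cells the gene was 53.8, 78.3 and 53.0 CPM in controls and 175, 211 and 224 CPM in Phase I ROP. The groups did not overlap there either (log2 fold change 1.32 ± 0.20, edgeR adjusted p = 0.000126).

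Amacrine cells gave 56.9, 52.1 and 55.1 CPM in controls against 167, 152 and 207 CPM in Phase I ROP. All 3 treated mice were well above the narrow control range (log2 fold change 1.34 ± 0.18, edgeR adjusted p = 7.22e-05). Müller glia gave 65.4, 77.2 and 81.8 CPM against 142, 180 and 212 CPM. The groups did not overlap (log2 fold change 1.10 ± 0.27, edgeR adjusted p = 0.0205), but this call was lost in DESeq2 (adjusted p = 0.0616), without the top 5% of doublet scores (0.0675), and without control 1 (0.0929), Phase I ROP 2 (0.0547) or Phase I ROP 3 (0.0862).

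Cones were few in controls, with 13 to 47 cells per mouse. Their Igf1r was 162, 0 and 118 CPM in controls and 116, 244 and 345 CPM in Phase I ROP, so the groups overlapped and the gene was not called (log2 fold change 1.06 ± 0.52, edgeR adjusted p = 0.152). With classes by marker score it was called (1.53, adjusted p = 0.0312). Over the whole retina the levels were 61.9, 61.2 and 61.4 CPM against 173, 196 and 242 CPM. Controls were almost identical and all below the treated mice (log2 fold change 1.46 ± 0.14, edgeR adjusted p = 1.56e-05). Genes called higher made up 18.0% of rod genes tested, 21.7% of bipolar genes, 18.3% of amacrine genes, 5.94% of Müller genes and 24.7% in the whole retina, and genes higher in every treated mouse 38.9%, 42.6%, 40.3%, 20.9% and 40.2%. The rise did not differ detectably between the 5 large classes (interaction test, edgeR adjusted p = 0.92).

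Several measures moved with the rise of Igf1r. The summed dissociation-response list was 278 to 387 CPM in control rods and 2411 to 3978 CPM in Phase I ROP rods. It was 211 to 279 against 1081 to 1178 CPM in bipolar cells and 837 to 1723 against 5834 to 9573 CPM in Müller glia. All 13 of the 13 dissociation genes tested in rods and 9 of 9 in bipolar cells were called, each higher. Their part in the result was not tested. The make-up of the rod class was also unequal, as the largest rod cluster held 52.5% of control and 78.5% of Phase I ROP rods. Within that cluster Igf1r was 101 to 104 CPM in the control mice and 197 to 295 CPM in the Phase I ROP mice.

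**Figure D3:**
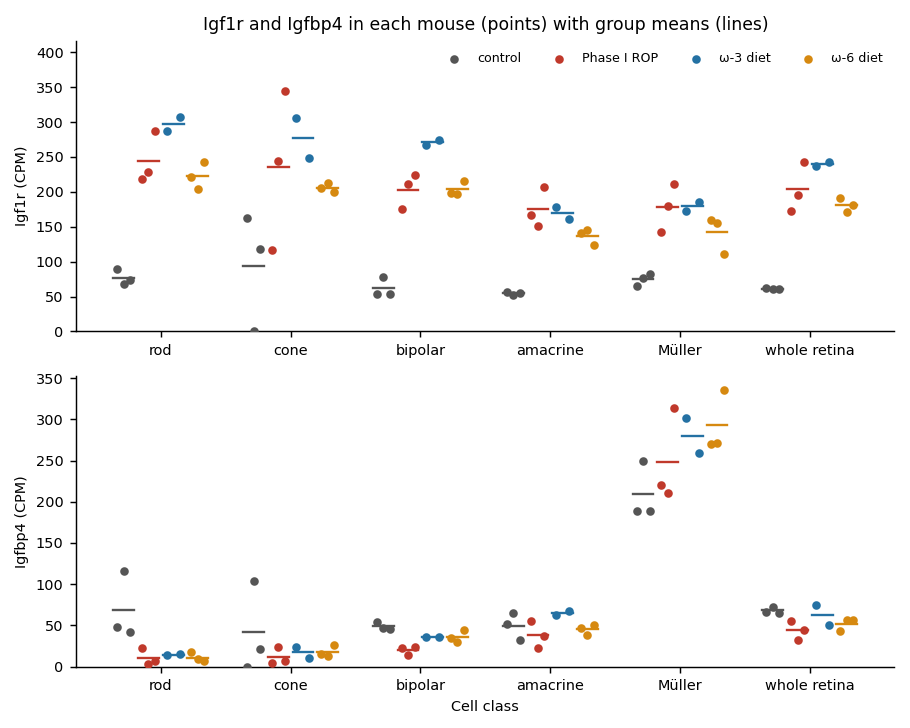
Igf1r (top) and Igfbp4 (bottom) in CPM for each of 11 mice (points) and each group mean (lines), in 5 classes and the whole retina. Igf1r was 61.2 to 61.9 CPM in control and 173 to 242 CPM in Phase I ROP whole retinas, and Igfbp4 was 42.3 to 116 CPM in control and 3.2 to 22.8 CPM in Phase I ROP rods.

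Igfbp4 in rods was 48.0, 116 and 42.3 CPM in controls, from 14, 27 and 20 UMIs, and 22.8, 3.2 and 6.5 CPM in Phase I ROP, from 23, 2 and 7 UMIs. The lowest control lay above the highest treated mouse, and the gene was called lower (log2 fold change -2.82 ± 0.58, edgeR adjusted p = 0.00139), beside 19.8% of rod genes that were called lower and 15.7% that were lower in every treated mouse. The size of the change depended on Phase I ROP 1, which gave most of the treated UMIs, and on the class rule, as the log2 fold change was -3.92 without that mouse and -1.87 with classes by marker score. In bipolar cells it was 53.8, 46.3 and 45.9 CPM in controls and 23.1, 13.9 and 23.5 CPM in Phase I ROP. The groups again did not overlap (log2 fold change -1.64 ± 0.31, edgeR adjusted p = 0.000752), beside 23.5% of genes called lower and 15.9% lower in every treated mouse.

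In amacrine cells the gene was 52.0, 64.4 and 31.9 CPM against 55.8, 22.8 and 37.3 CPM, with overlapping groups and no call (log2 fold change -0.70 ± 0.32, edgeR adjusted p = 0.098). It was called without control 3 (-0.92, adjusted p = 0.0367), without Phase I ROP 1 (-1.09, 0.0271) and without the top 5% of doublet scores (-0.88, 0.0441). Müller glia, which held the most Igfbp4, gave 189, 249 and 189 CPM against 220, 210 and 314 CPM. Those groups overlapped as well (log2 fold change 0.14 ± 0.24, edgeR adjusted p = 0.739). The change of Igfbp4 differed between classes, with an interaction at edgeR adjusted p = 0.000766, beside 9.99% of genes for which it did. This was lost when classes were set by a marker score per cell in place of clusters (adjusted p = 0.0684).

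Over the whole retina Igfbp4 was 66.0, 72.8 and 65.6 CPM in controls and 55.0, 32.4 and 43.9 CPM in Phase I ROP. All 3 treated mice were lower (log2 fold change -0.88 ± 0.19, edgeR adjusted p = 0.00282), as were 17.6% of genes, and 23.4% were called lower. At the same time the share of rods, a class poor in this gene, was higher in those mice. The part of that share in the whole-retina result was not tested. In the rod class the low counts limit the size of the change. The largest rod cluster alone had 30 UMIs in controls and 24 in Phase I ROP, at 61.7 against 11.6 CPM. In the ON-type bipolar cluster the 3 controls lay between 45.3 and 60.6 CPM and the 3 Phase I ROP mice between 13.8 and 27.1 CPM, and in the cone bipolar cluster the ranges of 24.3 to 50.1 and 12.6 to 26.4 CPM overlapped.

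Markers of Müller glia and astrocyte-like cells, both rich in Igfbp4, were measured in the same sums. Those of endothelial-like cells, also rich in it, are not given here. In rods the 12 Müller markers summed to 189 to 317 CPM in controls, with Aqp4 at 0, and to 149 to 190 CPM in Phase I ROP. The 7 astrocyte markers summed to 390 to 844 CPM in controls, with Gfap at 0, and to 242 to 309 CPM in Phase I ROP, with Pax2 at 0. In the largest rod cluster 1 of these 7 markers was seen in over 10% of cells, against 0 of the 12 Müller markers. The astrocyte sum may thus include a gene that rods carry, and Slc1a3 is in both lists. The 12 rod markers ran the other way, from 16859 to 30023 CPM in controls to 41185 to 57237 CPM. In bipolar cells the Müller markers were higher in Phase I ROP, 321 to 360 CPM with Hes1 at 0, than in controls, 185 to 279 CPM, and the astrocyte markers were 93.7 to 193 CPM in controls and 179 to 277 CPM in Phase I ROP. The part of these markers in the result was not tested.

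Igf1 was not called in any class tested. In bipolar cells it was 107.7, 72.3 and 87.7 CPM in controls and 133.6, 165.0 and 154.9 CPM in Phase I ROP. The groups did not overlap, as for 42.6% of bipolar genes that were higher in every treated mouse, but the gene was not called (log2 fold change 0.35 ± 0.19, edgeR adjusted p = 0.143). With library totals in place of TMM factors it was called (log2 fold change 0.77, adjusted p = 0.00444), a scaling that moved the median of all bipolar genes to 0.45. In amacrine cells the values were 23.5, 20.8 and 22 CPM against 35.1, 33.0 and 51.0 CPM, again without overlap and without a call (log2 fold change 0.50 ± 0.28, edgeR adjusted p = 0.169). Of all amacrine genes tested, 40.3% were higher in every treated mouse. Library totals gave a call there too (log2 fold change 0.85, adjusted p = 0.0224).

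In rods Igf1 was 13.7, 17.1 and 16.9 CPM in controls, from 4, 4 and 8 UMIs, and 2.0, 0 and 3.7 CPM in Phase I ROP, from 2, 0 and 4 UMIs. These counts were too low to be tested in rods alone, and Igf1 was too low in cones and Müller glia too. The interaction fit filtered genes over all class sums together, so Igf1 could enter it through bipolar and amacrine cells. The change of Igf1 differed between classes in the interaction fit (edgeR adjusted p = 0.00835), a result that was lost with cells of more than 500 genes (adjusted p = 0.0629), with the IGF genes kept in the clustering (0.0597), with classes by marker score (0.920), and without Phase I ROP 1 (0.0587) or 2 (0.0546). Over the whole retina Igf1 was 37.4 to 50.5 CPM in controls and 36.9 to 48.8 CPM in Phase I ROP, with overlapping groups (log2 fold change -0.25 ± 0.16, edgeR adjusted p = 0.236).

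**Figure D4:**
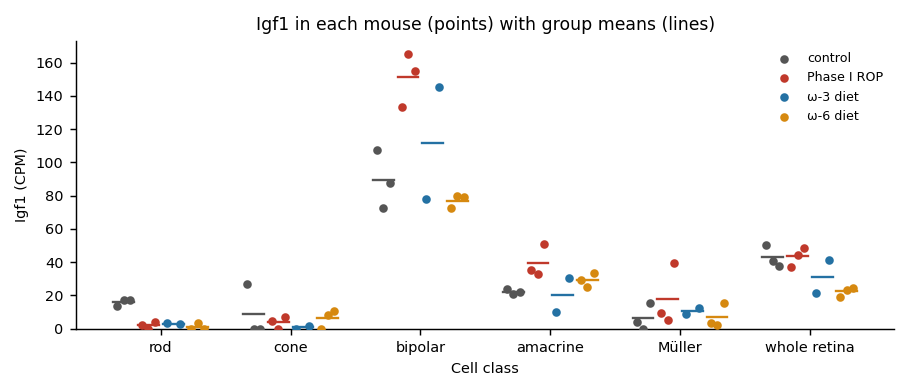
Igf1 in CPM for each of 11 mice (points) and each group mean (lines) in 5 classes and the whole retina. Bipolar cells lay between 72.3 and 165.0 CPM and amacrine cells between 10.2 and 51.0 CPM in all mice.

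The remaining members were not called in any class. Igf2r in the whole retina was 10.3, 8.6 and 7.4 CPM in controls and 14.8, 16.8 and 16.9 CPM in Phase I ROP. All treated mice were above all controls, as for 40.2% of genes, and the test fell just short (log2 fold change 0.62 ± 0.25, edgeR adjusted p = 0.0538). It passed with library totals (0.0119), with all 4 groups in 1 fit (0.0223) and with cells of more than 500 genes (0.0174).

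Igfbp2 in amacrine cells was 46.1, 45.5 and 120 CPM in controls and 42.4, 54.7 and 51.0 CPM in Phase I ROP. Only control 3 stood out (log2 fold change -0.85 ± 0.33, edgeR adjusted p = 0.0508), and the call was made in several alternatives, among them no filter on low counts (adjusted p = 0.00375) and a fit without control 2 (0.012). Igfbp5 in bipolar cells was 8.2, 16.6 and 15.3 CPM in controls and 18.1, 67.6 and 28.2 CPM in Phase I ROP. These did not overlap (log2 fold change 1.05 ± 0.46, edgeR adjusted p = 0.0769), and Phase I ROP 2 was the highest. In bipolar cells 42.6% of genes were higher in every treated mouse. The call was made in 5 alternatives, among them a fit without Phase I ROP 1 (adjusted p = 0.0378).

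Igfbp7 over the whole retina was 96.9, 123 and 182 CPM in controls and 77.1, 133 and 128 CPM in Phase I ROP (log2 fold change -0.54 ± 0.24, edgeR adjusted p = 0.0778). The groups overlapped, and the call was made by DESeq2 (adjusted p = 0.0481) and without control 1 (0.0313). Endothelial-like cells, the main source of the gene, numbered 49 in controls, 31 of them in control 3, and 25 in Phase I ROP. Per mouse they made up a mean 1.39% of control cells and 0.459% of Phase I ROP cells. Igf2 over the whole retina was 43.5, 7.0 and 53.4 CPM in controls and 81.7, 23 and 60.2 CPM in Phase I ROP (log2 fold change 0.40 ± 0.53, edgeR adjusted p = 0.555). The lowest value came from the control in which no astrocyte-like cell was caught, and the groups overlapped. Igfbpl1 was 7.4, 6.2 and 8.9 CPM against 7.0, 3.9 and 3.2 CPM, overlapping as well (log2 fold change -0.94 ± 0.38, edgeR adjusted p = 0.0611), and was called without Phase I ROP 1 (log2 fold change -1.39, adjusted p = 0.0207).

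In Müller glia the fold changes of Igfbp2 and Igfbp7 rested on 1 mouse. Igfbp2 was 88.5, 71.2 and 133 CPM in controls and 58.8, 41.0 and 683 CPM in Phase I ROP, and Igfbp7 was 158, 101 and 156 CPM against 118, 82.1 and 601 CPM. In Phase I ROP 3 the same 5 cells held 154 of 174 Igfbp2 UMIs, or 88.5%, and 125 of 153 Igfbp7 UMIs, or 81.7%. Without the Optc cells that mouse had 59.4 CPM of Igfbp2 and 89.1 CPM of Igfbp7, and the log2 fold changes went from 1.24 to -0.71 and from 0.80 to -0.53. Neither gene was called in these fits, and with no filter on low counts Igfbp2 was called (log2 fold change 1.21, adjusted p = 0.00362).

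**Figure D5:**
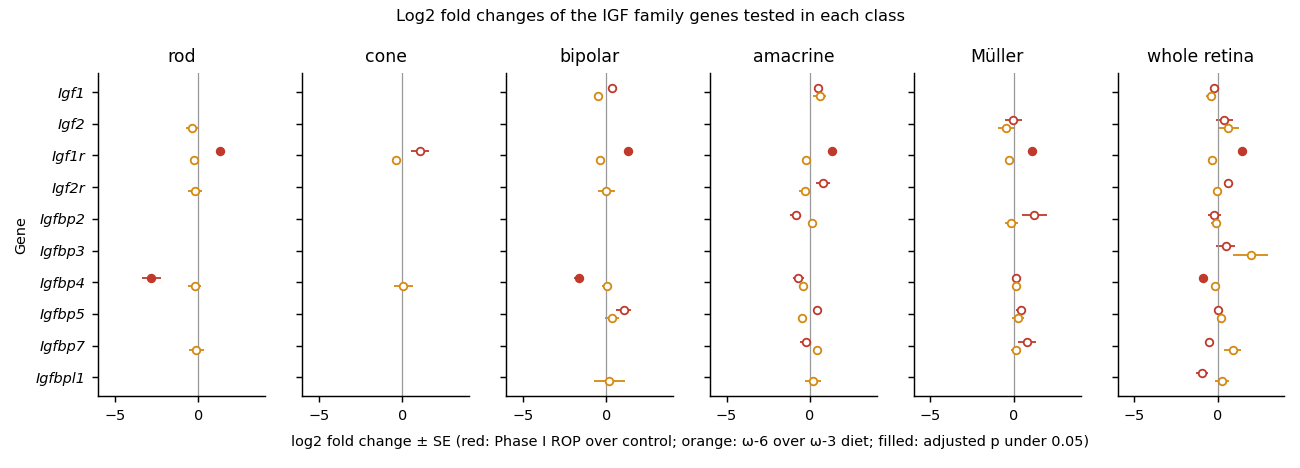
Log2 fold change with its SE for each IGF gene tested in 5 classes and the whole retina, for Phase I ROP over control (red) and the ω-6 over the ω-3 diet (orange), filled where the adjusted p was under 0.05. The filled points are Igf1r, from 1.10 to 1.46, and Igfbp4, from -2.82 to -0.88.

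Genes that act with the members were read from lists. Of 45 genes of IGF1 receptor signalling, 44 were tested in the whole retina, of which 28 were higher and 1 lower in Phase I ROP, with a median log2 fold change of 0.53 beside 0.00 over all genes, of which 24.7% were called higher and 23.4% lower. Rods had 8 of 31 higher and 0 lower, beside 18.0% of genes called higher, and bipolar cells 14 of 38 and 0, beside 21.7%. Amacrine cells had 15 of 40 higher and 1 lower, beside 18.3% called higher. Cones had 3 of 15 higher and 0 lower, beside 18.9% called in either direction, and Müller glia 1 of 22 and 0, beside 5.94% called higher. Scaling by library totals raised the counts of higher genes to 20 in rods, 24 in bipolar cells, 26 in amacrine cells, 6 in cones, 2 in Müller glia and 32 in the whole retina, with 0 lower in each.

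Irs2, the adaptor that links the receptor to PI3 kinase, had 7.58 CPM in control and 98.1 CPM in Phase I ROP retinas (log2 fold change 3.42 ± 0.22, edgeR adjusted p = 1.78e-06). It also rose in rods by 2.97, in bipolar cells by 3.22 and in amacrine cells by 3.15 on the log2 scale. Socs3, a feedback inhibitor of cytokine and insulin signalling, had 0.321 and 11.4 CPM (log2 fold change 4.65 ± 0.58, edgeR adjusted p = 7.45e-05), and Ptpn1, a phosphatase of the insulin and IGF1 receptors, 18.8 and 65.7 CPM (1.55 ± 0.16, adjusted p = 2.61e-05). In cones Ptpn1 rose by 3.53, Pdpk1 by 2.43 and Braf by 1.89, and in Müller glia Pik3r3 rose by 1.26. The gene called lower, Hras, had a log2 fold change of -0.33 ± 0.13 in the whole retina (edgeR adjusted p = 0.0492) and -0.58 ± 0.17 in amacrine cells, and with library totals neither was called (adjusted p = 0.706 and 0.305).

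Of 14 other IGF and insulin family genes in the files, 11 were tested in the whole retina, with 4 called higher and 2 lower, beside 24.7% and 23.4% of all genes. Stc1, whose product inhibits the protease that frees IGF from IGFBP4, rose by 2.13 ± 0.30, the growth hormone receptor gene Ghr by 1.36 ± 0.46 and the insulin receptor gene Insr by 0.75 ± 0.22 on the log2 scale. The gene of the mRNA-binding protein Igf2bp3 fell by 0.82 ± 0.17, and Igf2bp1 had -0.94 ± 0.31, which library totals moved to -0.69 with an adjusted p of 0.0896. In rods Ide, an enzyme that degrades insulin, rose by 0.91 and Igf2bp3 fell by 1.03. In amacrine cells Stc1 rose by 2.70, Insr rose by 1.44 and Igf2bp3 fell by 0.88. With library totals Igf2bp3 was not called in rods, bipolar cells or amacrine cells.

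The second comparison asked how the IGF genes differed between the ω-6 and the ω-3 diet in STZ-treated littermates. No member was called in any class or in the whole retina, and none of the signalling or family lists had a gene called. Almost no gene at all was called, with 0.0160% of 12513 genes in rods and 0% in the other classes, and at an unadjusted p under 0.05 rods had 1390 genes, cones 729, bipolar cells 500, amacrine cells 1365, Müller glia 283 and the whole retina 1328. DESeq2 called 31 genes in rods and 23 in the whole retina, none of them a member. The diet change differed between classes for 0 of the 9 members tested, beside 0.0396% of genes.

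Igf1r was lower in every ω-6 mouse than in both ω-3 mice in each class. Rods had 287 and 307 CPM in ω-3 mice and 222, 205 and 243 CPM in ω-6 mice (log2 fold change -0.29 ± 0.15, edgeR adjusted p = 0.487). Cones had 306 and 248 CPM against 206, 213 and 199 CPM (-0.39 ± 0.18, unadjusted p = 0.0483 and adjusted p = 0.621 in edgeR). Bipolar cells had 268 and 274 CPM against 199, 197 and 216 CPM, without overlap and without a call (-0.35 ± 0.19).

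Amacrine cells had 178 and 161 CPM against 141, 145 and 124 CPM (-0.23 ± 0.15), and Müller glia had 172 and 186 CPM against 160, 156 and 110 CPM (-0.27 ± 0.27). The whole retina had 237 and 242 CPM against 191, 172 and 181 CPM (-0.32 ± 0.13, unadjusted p = 0.0309 and adjusted p = 0.682 in edgeR). Such an order without overlap was met by 22.3% of rod genes, 14.9% of cone genes, 12.8% of bipolar genes, 19.3% of amacrine genes, 12.8% of Müller genes and 19.5% of genes in the whole retina. Igf1r was not alone in this in amacrine cells, where 4 of 8 tested members were lower without overlap and 1 was higher. With so few members tested, that share is not read as apart from its background. The classes came from the same 5 mice and are not independent of each other.

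Igf1 in bipolar cells was 77.9 and 145.6 CPM in ω-3 mice and 72.3, 79.8 and 79.0 CPM in ω-6 mice. The ω-3 mice differed from each other by more than the groups did, and 1 of them lay within the ω-6 range (log2 fold change -0.48 ± 0.27, edgeR adjusted p = 0.989). Without ω-3 mouse 2 the log2 fold change was 0.03 and without ω-3 mouse 1 it was -0.83. The same mouse was the higher one in both bipolar clusters and in amacrine cells, where ω-3 mice had 10.2 and 30.7 CPM and ω-6 mice 29.5, 25.3 and 33.4 CPM.

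For the diet groups, whole-retina levels of the vascular and astrocyte genes are set beside the cell numbers of the small classes. The part of those numbers in the levels was not tested. Igfbp3 was 1.2 and 3.5 CPM in ω-3 mice and 1.2, 23 and 2.8 CPM in ω-6 mice, and Igfbp7 was 57.1 and 53.9 CPM against 40.1, 189 and 62.2 CPM. In both genes ω-6 mouse 2 was the high one, and 21 of the 26 endothelial-like cells of the ω-6 group came from that mouse. The ω-3 mice had 6 endothelial-like cells each, and ω-6 mice 1 and 3 had 2 and 3, so the other mice did not rank by cell number. Igf2 was 79.5 and 13 CPM in ω-3 mice, with 7 and 1 astrocyte-like cells, and 91.0, 85.2 and 25.9 CPM in ω-6 mice, with 8, 10 and 2. None of these was called (edgeR adjusted p = 0.682, 0.698 and 0.815), and all groups overlapped.

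The diet groups were not tested against the Phase I ROP mice on standard feed, because they came from another litter. Side by side, Igfbp4 in rods was 14 and 14.6 CPM in ω-3 mice and 17.1, 8.7 and 7.0 CPM in ω-6 mice, within the Phase I ROP range of 3.2 to 22.8 CPM. In bipolar cells it was 36 and 35.7 CPM and 34.7, 30.3 and 43.9 CPM, between the Phase I ROP values and the controls. Igf1 in rods was 3.0 and 2.8 CPM and 0, 3.1 and 0 CPM, below the control range of 13.7 to 17.1 CPM.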

How the data were processed

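The deposited matrix holds UMI counts per gene and cell barcode. Per the study's methods, the authors ran the umis package of bcbio-nextgen on the inDrop reads, dropped barcodes with few reads and mapped to the GRCm38 transcriptome with Rapmap. Whether strand was used for counting is not given in the sources used here, so reads of overlapping genes may be shared. The counts were used as deposited, from 2565568 to 6517776 UMIs per mouse, and intervals cover counting error only.

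Cells with more than 300 genes were clustered in Seurat 5.3.0 (genes in more than 10 cells, scale factor 10000, 2000 variable genes less the IGF genes, 75 principal components, resolution 0.2), and clusters were named by marker genes. UMIs were summed per mouse and class. Classes with at least 10 cells in every mouse were tested with edgeR 4.0.16 (filterByExpr, TMM, quasi-likelihood test, Benjamini-Hochberg over all genes tested, threshold 0.05, R 4.3.3). Control was compared with Phase I ROP and the ω-3 with the ω-6 diet, and a class by treatment interaction with mouse as block tested whether changes differed between classes. The edgeR step was tested on simulated data. All 10 members are named. From the other gene lists, up to 3 called genes with the largest rise and 3 with the largest fall in each class were eligible for naming. The members and lists were chosen with earlier results of these data known. Alternatives were DESeq2 1.42.0, other scalings, filters, cell sets and class rules, thinning of counts, a replicate block and leaving out each mouse. Scaling by library totals and Müller glia without Optc cells were chosen after seeing the data. Scrublet scores came from scanpy 1.11.5, and positions are from GENCODE on GRCm38. Replicate numbers are shared by name only. Some likeness results are not reported here.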

Additional observations from a re-analysis of the deposited data

Results flagged for a closer look

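The change between Phase I ROP and control differed between the 5 large classes for 2 of the 8 members tested for it, by an interaction test in edgeR, beside 9.99% of all genes. The count was 0 with classes by marker score, and 1 with cells of more than 500 genes, with the IGF genes kept in the clustering, or without Phase I ROP 1 or 2. For Igfbp4 the adjusted p was 0.000766, with log2 fold changes of -2.82 (rods), -1.64 (bipolar cells), -0.70 (amacrine cells) and 0.14 (Müller glia). For Igf1 it was 0.00835, with the control mice higher than the Phase I ROP mice in rods, on 16 against 6 UMIs, and lower in bipolar and amacrine cells. Igf1 was too low to be tested in rods, cones or Müller glia alone, so this difference rests in part on low counts. Every group had at most 3 mice, so single mice far from their group could not be flagged by a rule for 4 or more samples.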

How the results depend on the processing

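Of the log2 fold changes of members recomputed under an alternative, 931 kept their direction and their side of the threshold, 33 passed it newly, 5 fell short of it and 74 turned, none of these called in either fit. Igf1r in rods, bipolar cells, amacrine cells and whole retina and Igfbp4 in rods, bipolar cells and whole retina stayed called wherever tested. Thinned rod sums left Igfbp4 untested. Depth limits the small classes and rods, where 8 of 10 members could not be tested. The cause of the changes below was not tested. Scaling by library totals and leaving out Optc cells were chosen after seeing the data.

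Phase I ROP over control, genes called: with all 4 groups in 1 fit 4954 in rods and 937 in cones, with classes by marker score 1943 and 1010, with thinned sums 1732 and 152, and with DESeq2 314 in Müller glia. Members called: in rods 1 with thinned sums, in cones 1 by marker score, in bipolar cells 4 with library totals. In amacrine cells they were 4 with library totals, 3 with no filter, with 4 groups or without high Scrublet scores, and 2 with DESeq2, median-of-ratios scaling, members kept in clustering or thinning. In Müller glia they were 2 with no filter and 0 with DESeq2 or without high Scrublet scores. Log2 fold changes that turned with library totals were Igfbp7 in amacrine cells (0.11), Igf2 in Müller glia (0.12), and in whole retina Igf1 (0.017), Igfbp2 (0.081) and Igfbp5 (0.25). Igfbp5 in whole retina also turned with no filter (0.037) and with 4 groups (0.012). Without high Scrublet scores Igf2 turned in Müller glia (0.024) and whole retina (-0.020), and without Optc cells Igf2 (0.063), Igfbp2 (-0.71) and Igfbp7 (-0.53) turned in Müller glia.

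The ω-6 over the ω-3 diet, genes called: DESeq2 gave 23 (whole retina), 31 (rods), 12 (amacrine cells), 3 (Müller glia), 3 (bipolar cells) and 3 (cones), and no filter gave 149 in rods, 69 in amacrine cells, 18 in Müller glia, 14 in bipolar cells and 12 in cones. In rods 4 groups gave 6, and library totals, more than 500 genes per cell, the Scrublet cut and marker score gave 0. Turned log2 fold changes were Igfbp7 in rods without high Scrublet scores (0.0067), Igfbp4 in cones by marker score (-0.19), Igf2r in bipolar cells with DESeq2 (-0.0026), library totals (-0.034), no filter (-0.0072) and members kept (-0.074), and Igfbp4 there with library totals (-0.0056). In Müller glia they were Igf2 with thinning (0.025), Igfbp2 without Optc cells (0.31), and Igfbp7 with more than 500 genes per cell (-0.0032) and thinning (-0.037).

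Replicate numbers are shared between groups by name only. Same-numbered mice deviated together weakly, with correlations over genes from -0.05 to 0.15 for control and Phase I ROP. With a replicate block the Phase I ROP members called were 3 (whole retina), 3 (bipolar cells), 2 (rods), 1 (amacrine cells), 1 (Müller glia) and 0 (cones). For diet, with 2 pairs, the block called 85 genes (amacrine cells), 38 (rods), 25 (cones), 12 (Müller glia), 9 (bipolar cells) and 75 (whole retina), the last with 2 members, Igf2 (1.41, edgeR adjusted p = 1.78e-07) and Igfbp3 (2.02, edgeR adjusted p = 0.00923). It turned Igf2r in rods (0.049) and whole retina (0.026), Igfbp4 in cones (-0.17) and bipolar cells (-0.10), Igfbpl1 in bipolar cells (-0.0036) and Igfbp7 in Müller glia (-0.068).

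Leaving out each mouse, Phase I ROP genes called ranged from 277 to 647 in cones and 254 to 434 in Müller glia, and members called from 1 to 3 in amacrine cells and 0 to 1 in Müller glia. Log2 fold changes ranged from -0.51 to 0.13 for Igfbp7 in amacrine cells. In Müller glia they ranged from -0.77 to 0.50 for Igf2, -1.08 to 1.73 for Igfbp2, -0.055 to 0.27 for Igfbp4 and -0.57 to 1.22 for Igfbp7. In whole retina they ranged from -0.066 to 0.90 for Igf2, -0.92 to 0.22 for Igfbp2, -0.021 to 0.93 for Igfbp3 and -0.20 to 0.14 for Igfbp5. Igfbp2 was called without Phase I ROP 3 (-0.92, edgeR adjusted p = 0.042).

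For diet, the range of genes called was 0 to 19 (rods), 0 to 4 (cones), 0 to 6 (amacrine cells), 0 to 3 (Müller glia) and 0 to 2 (whole retina). Log2 fold changes ranged in rods from -0.52 to 0.12 for Igf2r and -0.34 to 0.036 for Igfbp7, in cones from -0.39 to 0.76 for Igfbp4, and in bipolar cells from -0.83 to 0.030 for Igf1, -0.40 to 0.59 for Igf2r and -0.10 to 0.18 for Igfbp4. In amacrine cells they ranged from -0.044 to 0.30 for Igfbp2 and -0.077 to 0.50 for Igfbpl1, and in Müller glia from -0.58 to 0.19 for Igfbp2, -0.19 to 0.78 for Igfbp5 and -0.039 to 0.30 for Igfbp7. In whole retina they ranged from -0.83 to 0.17 for Igf1, -0.14 to 2.43 for Igf2, -0.15 to 0.058 for Igf2r, -0.48 to 0.43 for Igfbp2, -0.22 to 2.98 for Igfbp3, -0.41 to 0.093 for Igfbp4, -0.070 to 0.33 for Igfbp5, -0.022 to 1.27 for Igfbp7 and -0.23 to 1.01 for Igfbpl1.

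Members whose Phase I ROP change differed between classes numbered 1 with more than 500 genes per cell, 0 by marker score, 1 with members kept in clustering, and 1 to 2 leaving out each mouse. By marker score the highest class had 120.7 CPM of Igf1 (bipolar), 1546 of Igf2, 251.8 of Igf1r, 31.3 of Igf2r, 145.6 of Igfbp2 (Müller), 187.7 of Igfbp3, 259.2 of Igfbp4 (Müller), 415.4 of Igfbp5, 2059 of Igfbp7 and 19.8 of Igfbpl1 (RPE-like). Without high Scrublet scores Igf2 had 7945 CPM, and with more than 500 genes per cell Igf1r had 249.7 and Igf2r 65.5 CPM.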

Other observations

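Igf1r was also found in the cluster of 201 cells that no marker named, led by H2-Bl, at 210 CPM (interval 164 to 266). Counting error alone is covered by that interval.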
